A study of Mus musculus with 38 samples.

Results

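H3K4me1 domains of week 2 (W2) and week 6 (W6) after SOX9 induction were compared in epidermal stem cells (EpdSCs) of mouse skin. All domains of both lists were taken, 73415 at W2 and 79556 at W6, or 152971 of the 384013 H3K4me1 domains called at the 5 time points of skin. A domain that overlapped any domain of the other list by at least 1 bp was counted as shared, and the others as W2-only or W6-only. By this rule 14230 domains were W2-only and 18595 were W6-only. The 2 lists rest on 8 of the 38 samples of the series.

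All mice were labelled male and K14rtTA; TRE-myc-Sox9, so that doxycycline (DOX) switches on a myc-tagged Sox9 transgene wherever the keratin 14 promoter drives rtTA, which is the basal layer of stratified epithelia. DOX was injected at P21 and then given in the feed, and back skin was taken before induction (D0) and 1, 2, 6 and 12 weeks after it, W12 coming from skin grafted onto immunocompromised Nude hosts. EpdSCs were sorted as cells negative for CD31, CD45, CD117 and CD140a, high for CD49f, negative for CD34 and high for Ly6A, and their chromatin was digested with high or low micrococcal nuclease, barcoded, pooled and immunoprecipitated (MINT-ChIP). W6 replicates 1 and 2 and W2 replicate 2 had libraries of their own, whereas W2 replicate 1 was sequenced in libraries shared with W12 and told apart by its barcode. The authors merged the replicates before calling, so that each time point has 1 list and no spread between replicates can be given. Every D0, W1 and W12 value below comes from such a list too, and no uninduced samples of the same age as W2 or W6 were analysed here.

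H3K4me1, monomethylation of lysine 4 of histone H3, marks enhancers that are primed or active and the flanks of active promoters. H3K27ac, acetylation of lysine 27, is added where these elements are in use. In normal skin SOX9 is a master regulator of hair follicle stem cells and is silent in EpdSCs, and the study induced it to follow EpdSCs as they were driven towards hair follicle fate and then towards a state like basal cell carcinoma. Enhancers of this lineage carry sites for SOX and RUNX factors and for AP1, the FOS and JUN dimer that serves epidermal, stress and wound programmes.

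The sequences shown first come from both ends of the comparison, except the last, which lies in domains of both lists. They were chosen because they hold a word that the results turn on. Each is a 200-bp window read from the plus strand of GRCm38 (RefSeq), outside annotated exons. Capitals mark any word found, on either strand, for AP1 (TGANTCA) or SOX (ACAATG, which reads CATTGT on the other strand). Other words counted below are not marked. The first pair come from the best-ranked domains, among those called at W6 and W12 and in no earlier list, that hold an AP1 word near their centre, 1 on chromosome X nearest to Acsl4, which activates long-chain fatty acids, and 1 in an intron of Pcsk1, a prohormone convertase.
Acsl4, chrX:142437925-142438124: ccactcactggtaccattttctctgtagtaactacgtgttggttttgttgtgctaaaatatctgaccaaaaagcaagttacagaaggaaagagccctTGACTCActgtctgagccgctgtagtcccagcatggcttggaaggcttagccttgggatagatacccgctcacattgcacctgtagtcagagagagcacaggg
Pcsk1, chr13:75113247-75113446: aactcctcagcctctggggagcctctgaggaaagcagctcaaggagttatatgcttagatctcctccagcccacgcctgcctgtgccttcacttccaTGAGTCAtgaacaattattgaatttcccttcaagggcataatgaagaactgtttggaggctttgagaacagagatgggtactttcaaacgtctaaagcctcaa

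The next pair come from domains called at W2 and in no other list that hold a SOX word near their centre, the best-ranked in an intron of Abcc1, an export pump for glutathione conjugates, and the third between genes nearest to Tmem64. The second by rank, nearest to Adam7, holds a start site and is not shown, and its window held 1 SOX word and 2 AP1 words.
Abcc1, chr16:14469171-14469370: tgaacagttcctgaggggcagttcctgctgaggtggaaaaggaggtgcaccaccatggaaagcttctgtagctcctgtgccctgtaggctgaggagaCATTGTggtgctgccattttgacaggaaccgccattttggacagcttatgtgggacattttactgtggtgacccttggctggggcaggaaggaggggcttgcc
Tmem64, chr4:15550954-15551153: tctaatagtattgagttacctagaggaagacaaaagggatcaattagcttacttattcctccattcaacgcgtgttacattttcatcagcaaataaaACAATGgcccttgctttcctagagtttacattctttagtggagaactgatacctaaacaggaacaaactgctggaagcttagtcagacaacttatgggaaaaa

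The last is an H3K27ac summit of W6 in the Ereg gene, which encodes the EGF receptor ligand epiregulin. The summit lay inside an H3K4me1 domain at W2 and at W6. The locus had 3 H3K27ac peaks at W6 and none at W2, and the window at this summit, with a fold enrichment of 5.96 in the authors' list, holds 2 AP1 words. An AP1 word lay in such a window at 5.36% (5.11 to 5.63%) of all 29081 H3K27ac summits of W2 and 4.79% (4.56 to 5.04%) of all 30516 of W6. It lay at 3.54% (2.59 to 4.71%) of the 1271 W2 summits in a W2 and no W6 domain and 3.42% (2.51 to 4.53%) of the 1346 W6 summits in a W6 and no W2 domain. In domains of both lists, as at Ereg, it lay at 5.72% (5.44 to 6.02%) of 25329 W2 summits. The share there was 5.16% (4.90 to 5.44%) of 26419 W6 summits, so that the word was not more frequent at summits of W6.
Ereg, chr5:91083190-91083389: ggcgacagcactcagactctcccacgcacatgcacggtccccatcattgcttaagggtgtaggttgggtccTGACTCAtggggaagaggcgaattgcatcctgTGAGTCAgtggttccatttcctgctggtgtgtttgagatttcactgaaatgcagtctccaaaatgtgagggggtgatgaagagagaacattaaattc

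About 1 domain in 5 of each list had no counterpart in the other. The W2-only domains were 19.4% of the W2 list (95% Clopper-Pearson interval 19.1 to 19.7%) and the W6-only domains 23.4% of the W6 list (23.1 to 23.7%). These and later intervals cover counting error only. Of the bases covered, 210.6 Mb lay in both lists, 84.0 Mb in the W2 list alone and 62.1 Mb in the W6 list alone, a Jaccard index (bases in both over bases in either) of 0.590. W2 therefore had fewer unmatched domains than W6 but more unmatched bases, because its domains were wider, with a median of 2800 bp against 2400 bp.

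The unmatched domains were the narrow and weak ones of each list. Median width was 2000 bp in W2-only and 1400 bp in W6-only domains, against 3200 and 2800 bp in the shared domains of the same lists. Ranked by the authors' p-value within each list, the median W2-only domain stood at 80.1% of the way down and the median W6-only domain at 77.7%, whereas shared domains stood at 41.2% and 39.3%. Of the best-ranked 10% of each list, 3 of 7341 W2 domains and 7 of 7955 W6 domains had no counterpart, while in the last 10% the shares were 53.0% and 55.6%. In the 4389 matched domains of identical width, the W6 p-value was the smaller in 76.9%, with a median −log10 p of 26 at W2 and 44.2 at W6. The depth of the H3K4me1 libraries is unknown, so that a region without a domain had none detectable at that depth, which is less than showing that it had none. When the lists were cut to equal length, W2-only domains were 22.1% and W6-only domains 20.7%, so which list had more of them depends on list length.

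Most W6-only domains were not first seen at W6. Of the 18595, 59.6% (58.9 to 60.3%) overlapped a D0 domain, 38.8% (38.1 to 39.5%) a W1 domain and 55.0% (54.3 to 55.8%) a W12 domain. W2-only domains were found less often in each of these lists, with 36.1% (35.3 to 36.9%) in the D0 list, 23.9% (23.2 to 24.6%) in that of W1 and 19.2% (18.6 to 19.9%) in that of W12. The difference was 23.5 percentage points (22.5 to 24.6) for the D0 list, 14.9 (13.9 to 15.9) for the W1 list and 35.8 (34.8 to 36.8) for the W12 list, by counting error alone. The W12 share was the lower for W2-only domains although W12 shares libraries with W2 replicate 1. Shared domains of the W2 or W6 list were in each of those lists in 87.8 to 90.6% of cases.

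Taken over all lists at once, 7556 W2-only domains (53.1%) were called at W2 and at no other time, and 1822 (12.8%) at D0, W1 and W2 and at neither later time. Among W6-only domains 4500 (24.2%) were called at all times but W2, and 3975 (21.4%) at W6 alone. Another 2874 (15.5%) were called at W6 and W12 and at no earlier time, and are named late gains below. The history plot shows these shares by list.

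**Figure D1:**
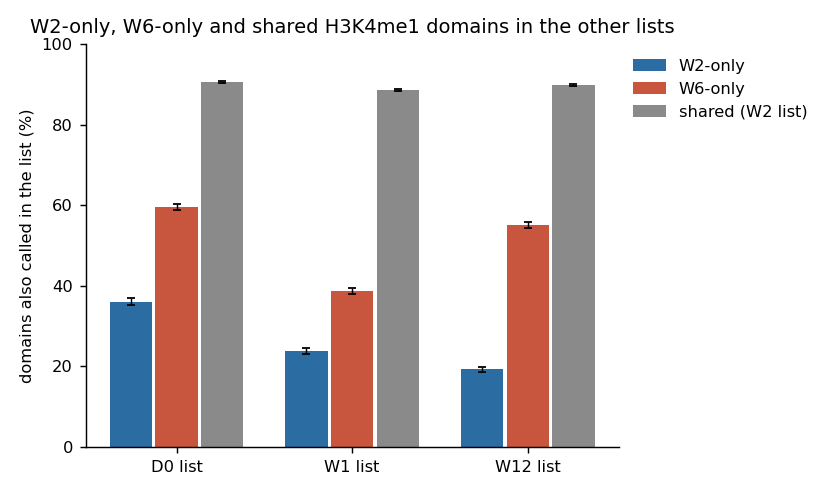
Share (%) of W2-only, W6-only and shared H3K4me1 domains, the last from the W2 list, that overlapped a domain of the D0, W1 or W12 list, with bars at the pooled value and error bars for the 95% counting interval. W6-only domains stood at 59.6, 38.8 and 55.0%, above W2-only domains at 36.1, 23.9 and 19.2%, and shared domains of the W2 list stood between 88.5 and 90.6%.

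The best-ranked W2-only domain (chr14:59662001-59679000) spanned 17000 bp in an intron of Atp8a2, a phospholipid flippase, with Shisa2, an antagonist of Wnt and FGF receptor maturation, as the nearest protein-coding start site. It was called at D0, W1 and W12 as well. A second domain of the same intron, 7800 bp wide, was called at D0, W1 and W2 and at neither later time. Next by rank were domains nearest to the ribosomal protein gene Rps24 (12400 bp) and to Cxcl12 (10400 bp), the chemokine that binds CXCR4. The domain nearest to Oxtr, the oxytocin receptor (chr6:112542001-112550600), was called at W1 and W2 alone and held an H3K27ac peak at W2. Domains nearest to Crb2, Nnmt and Lhfp were also missing at both W6 and W12. Of the 10 best-ranked W2-only domains, 8 were also in the D0 list.

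The best-ranked W6-only domain (chr3:126911201-126924800) spanned 13600 bp between genes, nearest to Ank2, a membrane-skeleton adaptor, and had a p-value given as 0. It was called at D0 and W12 and held H3K27ac peaks at W6 and W12. The next were a domain of 12200 bp nearest to Mapk6, an atypical MAP kinase, and domains nearest to Mgat4e and to Igfl3, all called at every time but W2. A domain of 9000 bp in an intron of Hrh1, the histamine H1 receptor (chr6:114442201-114451200), was called at D0, W6 and W12 and held H3K27ac peaks at W6 and W12. The best-ranked late gain (chr13:55934001-55941600, 7600 bp) lay nearest to Pitx1, a homeobox factor of the hindlimb and the oral epithelium, and held an H3K27ac peak of 14.3-fold enrichment at W6. The late gains nearest to Tmem167, in Pcsk1 and nearest to Erich3 held H3K27ac peaks at W6 and W12 as well, and the 1 nearest to Acsl4 held none at either time.

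W2-only and W6-only domains both lay away from start sites, and they lay in different kinds of sequence. The share over 2500 bp from the nearest annotated start site (distal) was 88.2% (87.6 to 88.7%) in W2-only and 82.4% (81.8 to 82.9%) in W6-only domains, against 64.5% and 64.8% in the shared domains of the 2 lists. Distal domains with their midpoint in an intron made up 50.4% of all W2-only and 38.8% of all W6-only domains, and those with their midpoint between genes 35.4% and 40.6%. A start site lay inside 4.91% of W2-only, 6.84% of W6-only and 24.5% and 23.1% of shared domains. W2-only domains also stood farther from the other list. The gap to the nearest W6 domain had a median of 9600 bp and exceeded 10000 bp in 48.6%, whereas the median gap from W6-only to W2 domains was 6000 bp and exceeded 10000 bp in 34.8%. Only 5.54% and 7.96% lay within 1000 bp of a domain in the other list.

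Chromosome X stood apart from the autosomes in the W6 list. Of its 1697 W6 domains 712 (42.0%, 39.6 to 44.3%) were W6-only, whereas the autosomes ranged from 19.2 to 25.3%. In the W2 list 221 of 1188 X domains (18.6%, 16.4 to 20.9%) were W2-only, within the autosomal range of 14.2 to 25.2%. The W6-only domains of X were distal in 68.3%, called at D0 in 61.0% and called at W12 in 36.7%, the last against 55.8% on autosomes. X domains made up 2.34% of the D0 list, 1.62% of the W2 list and 2.13% of the W6 list, and their part in the W6-only count was small, since 17878 W6-only domains lay on autosomes.

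Few unmatched domains carried H3K27ac, and W6-only domains carried it more often. A peak of the same time lay in 161 W2-only domains (1.13%, 0.964 to 1.32%) and in 685 W6-only domains (3.68%, 3.42 to 3.96%), against 33.7% and 32.7% of shared domains. W2-only domains held a W6 peak in 0.443%, and W6-only domains a W2 peak in 2.45%. Neither class held peaks most often at its own time. For D0, W1 and W12 peaks the shares were 1.24, 1.61 and 2.73% in W2-only domains. They were 4.23, 3.09 and 5.82% in W6-only domains. The late gains held H3K27ac in 0.313, 0.348 and 0.418% in the first 3 lists, in 1.98% (1.51 to 2.56%) at W6 and in 6.72% (5.83 to 7.69%) at W12. W2-only domains called in no other list held it in 0.132% at D0 and 0.622% at W2, and later in 0.159% (W6) and 1.76% (W12). The H3K27ac libraries had the layout of the H3K4me1 libraries, with W2 replicate 1 and W12 in shared libraries. The W12 H3K27ac list had the most peaks, 33985, and the narrowest, with a median of 476 bp against 635 to 821 bp. Its shares are therefore not like for like with those of other times. In shared domains the W12 share was 29.1% (W2 list) and 28.0% (W6 list), lower than at W2 and W6.

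The sequence under the unmatched domains differed in its AP1 word. In the 600 bp around the midpoint of each domain, the same window whatever its width, TGANTCA occurred in 19.7% (19.1 to 20.4%) of W2-only domains, 30.5% (29.8 to 31.2%) of W6-only domains and 43.6% (41.7 to 45.4%) of late gains. Shared domains stood at 21.7% in the W2 list and 22.0% in the W6 list, and all 152971 windows of both lists at 22.7%. The same letters in reversed order (ACTNAGT) occurred in 15.9, 16.3 and 17.4% of W2-only, W6-only and late windows and in 15.4% of shared windows of either list. Over whole domains the AP1 word occurred 0.364 times per kb in W2-only, 0.524 in W6-only and 0.700 in late domains, with 0.369 and 0.381 in shared ones.

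The AP1 words were concentrated around the middle of the W6-only domains. Among distal domains, the 100-bp steps on either side of the midpoint held 0.737 and 0.711 words per kb in W6-only domains and 1.10 and 1.11 in late gains, and the steps 950 bp away held 0.338 and 0.321, and 0.411 and 0.363. W2-only domains had 0.376 and 0.386 at the midpoint and 0.307 and 0.308 at that distance. Shared domains of the W6 list rose as well, but less, with 0.491 and 0.495 against 0.359 and 0.354. The order of W2-only, W6-only and late gains held in each of 3 width classes. In domains of up to 1000 bp the share of central windows with the word was 22.3% for W2-only, 32.6% for W6-only and 47.9% for late gains, and in those over 2000 bp it was 18.5, 26.4 and 35.2%. Among W6-only domains the share was 27.3% in those called at W6 alone, 36.2% in those called at D0, W6 and W12, and 19.5% in those called at D0, W1 and W6.

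**Figure D2:**
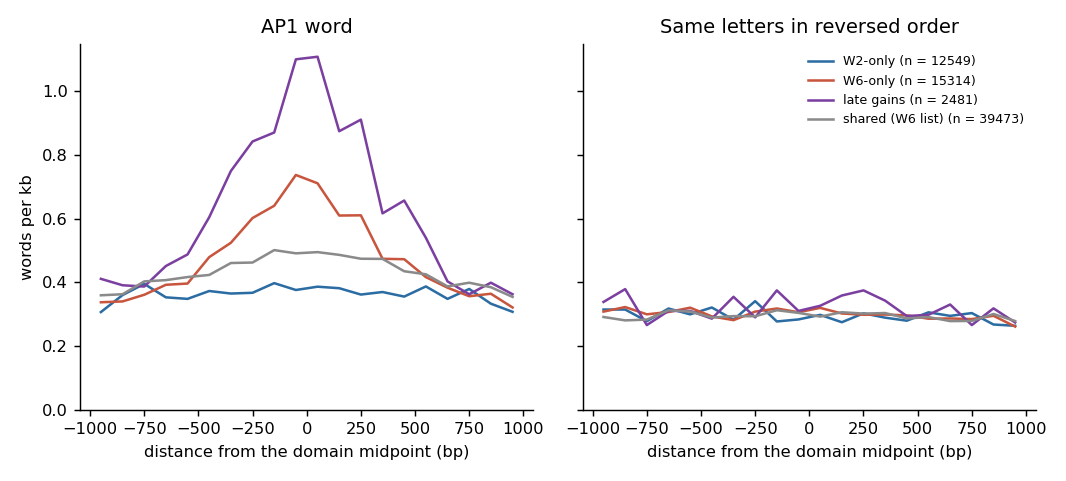
Occurrences per kb of the AP1 word TGANTCA (left) and of its letters in reversed order (right), both strands, in 100-bp steps around the midpoint of distal domains (x axis, bp). Lines stand for W2-only (n = 12549), W6-only (n = 15314), late-gained (n = 2481) and shared (n = 39473) domains. At the midpoint the AP1 word reached 1.11 per kb in late gains, 0.737 in W6-only domains and 0.495 in shared domains. It stayed near 0.38 in W2-only domains, and the reversed letters showed no such rise.

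The SOX word followed another division, between domains that were or were not called at D0. ACAATG lay in the central window of 35.3% (34.2 to 36.4%) of domains called at W2 alone, 35.2% of those called at W6 alone and 34.0% (32.3 to 35.8%) of late gains. It lay in 27.6% (26.7 to 28.4%) of W6-only domains that were called at D0, in 27.9 and 28.2% of shared domains and in 28.8% of all windows. The reversed letters (GTAACA) lay in 21.7, 20.2 and 20.9% of the first 3 classes and in 20.1% of the fourth. The longer word AACAATGG, which contains ACAATG, lay in 3.93% of domains called at W2 alone, 3.38% of late gains and 2.49% of shared W2 domains, and in 2.62% of all windows. The RUNX word TGTGGTT lay in 18.1% (16.7 to 19.5%) of late gains, 15% of W6-only and 13.0% of W2-only domains, with 13.7% of all windows, and its reversed letters (TTGGTGT) in 8.98, 8.91 and 8.69%.

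Other words differed by less than 2 percentage points between W2-only and W6-only windows. GGAATG, for TEAD factors, lay in 32.8% of W2-only and 31.4% of W6-only windows and in 31.1% of all windows. AGATAAG, for factors of the Gata3 family, lay in 8.1 and 8.81%, with 8.26% of all. It lay in 9.5% (8.96 to 10.1%) of W6-only domains called at D0, 7.27% (6.35 to 8.28%) of late gains and 7.8% (7.20 to 8.42%) of domains called at W2 alone. The NF-κB word GGGANTTCC lay in 2.1 and 2.52%, with 2.32% of all. The GLI word GACCACCCA lay in 0.471 and 0.366%, with 0.431% of all. Base composition moved with the classes. GC content was 44.1% in W2-only, 45.9% in W6-only, 45.5% in late and 46.6 to 46.8% in shared domains, against 41.7% of the genome, and CpG occurred 9.84, 11.9, 10.4 and 14.1 to 14.3 times per kb. The part of composition in the word counts was not tested beyond the reversed letters, and a match to a word is not evidence of binding.

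Matched domains were on balance narrower at W6. Of 46609 domains that matched 1 to 1, 24442 (52.4%, 52.0 to 52.9%) were narrower at W6, 17778 (38.1%) wider and 4389 (9.42%) of the same width. The median width was 3000 bp at W2 and 2600 bp at W6, and the median change was −200 bp, 1 bin of the caller. A width at W6 of 50% or less of that at W2 occurred in 11.2%, and of at least 2 times in 4.96%. Both edges moved in for 21.4% and out for 14.2%. In the 35257 of these that also matched 1 D0 domain, the median was 3000 bp at D0, 3000 bp at W2 and 2600 bp at W6. The remaining shared domains split or joined. 5331 W2 domains overlapped 2 or more W6 domains, and 3934 W6 domains overlapped 2 or more W2 domains.

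Width moved with H3K27ac. Where a matched domain held an H3K27ac peak at W2 and none at W6 (3063 domains), 59.6% (57.9 to 61.4%) were narrower and 31.4% wider, with medians of 3800 and 3400 bp. Where it held a peak at W6 and none at W2 (2983), 38.8% (37.1 to 40.6%) were narrower and 52.1% wider, with medians of 3400 and 3600 bp. Domains with a peak at both times (10762) had the same median, 4600 bp, at both and were narrower in 46.5% and wider in 44.2%. The 29801 domains with a peak at neither time were narrower in 55.2%. Narrowing was also more frequent, at 60.4% (59.0 to 61.7%), in the 5003 matched domains whose W2 domain was not called at D0, of which 20.8% fell to 50% or less of their W2 width, against 51.5% and 10.04% in those called at D0.

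**Figure D3:**
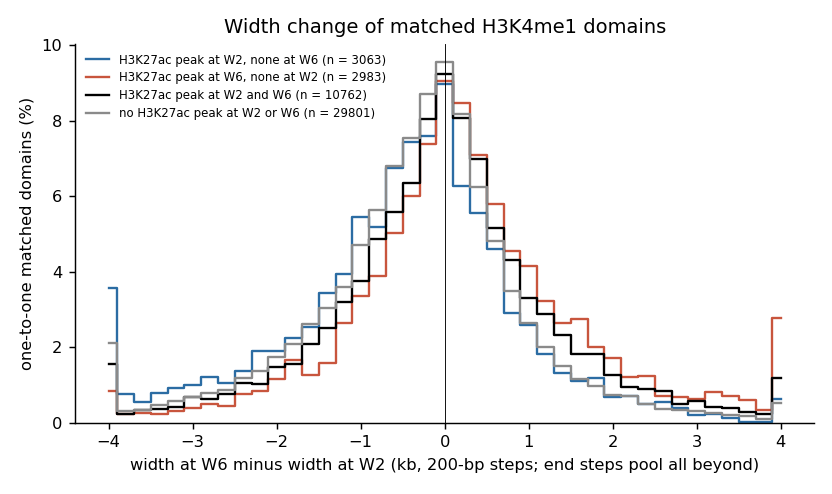
Width at W6 minus width at W2 (x axis, kb, in steps of 200 bp, with the end steps pooling all larger changes) of H3K4me1 domains matched 1 to 1, as a share (%) of each group. Domains with an H3K27ac peak at W6 alone (n = 2983) lie to the right, 52.1% of them wider, and those with a peak at W2 alone (n = 3063) to the left, 59.6% of them narrower.

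The largest narrowing was in an intron of Klhl29, where a domain of 36000 bp at W2 was matched by 1 of 1400 bp at W6 and its H3K27ac peak was no longer called. In the Atp8a2 intron near Shisa2 a domain went from 18400 to 1200 bp, again with an H3K27ac peak at W2 alone. At Tcf7l2, a Wnt effector of hair follicle stem cells, a domain that held a start site went from 17600 to 2200 bp. The other 7 largest are named by the nearest protein-coding start site, which lay up to 368834 bp away (Rps24). They were nearest to Ttc29, Col4a3, Rps24, 1700020N01Rik, Filip1l, Crb2 and Rbm33. Gains in width were smaller. The largest were nearest to Knop1 (2800 to 14600 bp), Sh2d4b (1400 to 11600 bp) and Zpld1 (14600 to 24400 bp, 221615 bp away). Those nearest to Gm9887, Myo5b, Shank2, Ptpn5, Tob1, Bcl9 and Guca1b followed. Of these 10, 8 held an H3K27ac peak at W6 and 4 at W2, whereas of the 10 largest narrowings none held a peak at W6 and 4 held 1 at W2. The choice by width set their W6 widths apart, at 9400 to 24400 bp against 600 to 4200 bp. A wider domain has more room for a peak, so that these counts do not measure a link between width and H3K27ac.

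To describe genes, the share of each protein-coding locus (gene body with 10 kb on both sides) covered by domains was computed for all 21911 genes, and a locus was called higher or lower where W6 and W2 differed by at least 10 percentage points. A call is a difference of that size between 2 pooled lists, with no test. By this rule 1536 loci (7.01%) were higher at W6 and 1790 (8.17%) lower. Only the 17669 loci with a domain at W2 or W6 could be called, and of these 8.69% were higher and 10.1% lower. The loci lower at W6 had a median coverage, in the order D0, W1, W2, W6 and W12 used for each run of 5 values below, of 34.2, 31.0, 42.0, 25.4 and 27.8%, and W2 was the highest of the 5 lists in 1274 of them (71.2%). The loci higher at W6 had medians of 37.9, 30.9, 26.1, 41.6 and 37.0%, and W2 was the lowest list in 914 (59.5%). Over all loci the medians ran from 14.9 to 18.5%. The W2 and W6 values chose these loci, so that the D0, W1 and W12 values alone are outside the choice. The choice favours a high W2 value in lower loci and a low W2 value in higher loci. That W2 was the highest or lowest list is therefore expected in part. Of higher loci with an H3K27ac peak at W2 or W6, 48.6% had more peaks at W6 and 14.2% fewer. Of lower loci, 26.7% had more and 34.8% fewer, and of all loci 33.8% and 20.2%.

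Transcription factors of hair follicle stem cells were the gene list with the lowest median difference. Of 13, 8 were lower at W6 and 1, Sox21, was higher, with a median difference of −14.9 points against 0 over all protein-coding loci. Over loci with a domain at W2 or W6 it was −0.35 points. Median W2 coverage was 75.5% in the 13 and 22.1% in loci with a domain, which left the 13 more room to fall. The 13 windows together were covered over 53.1, 50.3, 68.8, 51.7 and 49.6%, and held 97, 99, 132, 105 and 91 H3K27ac peaks. W2 was the highest of the 5 lists in both marks.

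Lhx2 (ENSMUSG00000000247, chromosome 2, 38339281 to 38369733, plus strand), a LIM homeobox factor that maintains hair follicle stem cells, was covered over 41.9 and 39.1% in the D0 and W1 lists, 78.8% at W2, and 37.5 and 31.2% in the W6 and W12 lists. It had 5 H3K27ac peaks at W2 and none in any other list. Tcf7l1 (ENSMUSG00000055799, chromosome 6, 72626378 to 72789254, minus strand), a repressive Wnt effector of the bulge, was covered over 35.9, 26.3, 81.5, 39.2 and 40.1%, and held 4 W2-only domains and 3, 6, 11, 6 and 4 H3K27ac peaks. Both loci were high at W2 alone and close to their D0 coverage at W6. Tcf7l2 was covered over 48.4, 52.4, 75.5, 54.1 and 51.8%. Nfatc1, which keeps bulge stem cells quiescent, stood at 57.1, 60.4, 83.2, 67.3 and 59.0%, with 8, 12, 11, 15 and 10 H3K27ac peaks. Its coverage at W6 was between the D0 and W2 values, and its peaks were most at W6. Nfib and Nfix, nuclear factor I proteins of the bulge, went from 64.6 to 52.9% and from 91.4 to 76.4%, and Tbx1 from 66.2 to 50.5%, with 3 H3K27ac peaks at W2 and none at D0, W1 or W6. In its gene body alone Tbx1 was covered more at W6, by 33.01 points. Barx2, Hmga2, Foxc1 and Foxi3 were not called.

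At Sox9 itself coverage was 36.0, 22.7, 57.1, 40.6 and 46.9%. The transgene carries Sox9 sequence, and reads from it cannot be told apart from those of the gene where the 2 are identical.

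Markers of hair follicle stem cells and of the outer root sheath showed the same order at 5 of 14 loci, with 2 higher and a median of −5.35 points. Cd34, the surface marker of the bulge, was covered over 3.8% in the D0 and W1 lists, then 49.5% at W2, 19.8% at W6 and 25.9% in the W12 list, although the sorted cells were negative for CD34 protein. Lgr5, a marker of stem cells of bulge and germ, stood at 8.6, 6.7, 35.7, 11.7 and 16.4% and held 5 W2-only domains. Both loci were lowest before W2 and stayed above D0 at W6 and W12. Dkk3, Cxcl14 and Npnt were also lower, and Krt24 and Aqp3 higher. Krt15, Krt17, Lgr6, Lrig1, Postn, Bmp6 and Fgf18 were not called. Of the 13 lower loci in the 2 lists, W2 was the highest of the 5 lists in 12, the exception being Cxcl14 with 77.8% at D0. The choice of lower loci favours a high W2 value, and W2 was the highest in 71.2% of all lower loci.

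Cytokine and alarmin genes of keratinocytes moved the other way. Of 18, 10 were higher at W6 and none was lower, with a median difference of +11.7 points. The size depended on the window. With 50 kb on both sides the median was +9.65 points, with 8 higher and none lower. In the gene body alone it was +2.27 points, with 8 higher and 1 lower. Their 17 separate windows were covered over 36.0, 30.1, 27.1, 38.4 and 37.2%. H3K27ac peaks numbered 23, 23, 17, 20 and 22. They too were fewest at W2 and more at W6, but unlike coverage they stayed below the D0 value at W6.

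Il1rn, the interleukin 1 receptor antagonist, was covered over 70.4 and 67.2% in the D0 and W1 lists, 28.3% at W2, and 56.0 and 62.4% in the W6 and W12 lists, with 3 W6-only domains. Il1b stood at 42.7, 42.2, 16.6, 38.2 and 25.6% and Il1a at 42.8, 35.6, 26.9, 44.7 and 48.0%. These 3 genes had their lowest coverage at W2. Il18, an epithelial alarmin, stood at 17.1, 13.6, 8.08, 34.97 and 31.6%, with 4 W6-only domains and H3K27ac peaks at W6 (1) and W12 (2) alone, and here both later values were above D0. Ccl20, which attracts CCR6-bearing lymphocytes, stood at 80.2, 60.7, 53.6, 87.5 and 49.996%. Cxcl1, Cxcl2 and Cxcl5, chemokines for neutrophils, went from 53.4 to 68.0%, from 25.97 to 37.7% and from 15.3 to 26.9%. The windows of Cxcl1 and Cxcl2 overlap. S100a8 and S100a9, which together form calprotectin, went from 8.55 to 24.97% and from 0 to 21.7%. Il6, Tnf, Ccl2, Il33, Tslp, Csf2, Cxcl16 and Ccl27a were not called. W2 was the lowest list at 4 of the 10 higher loci, and in 59.5% of all higher loci.

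**Figure D4:**
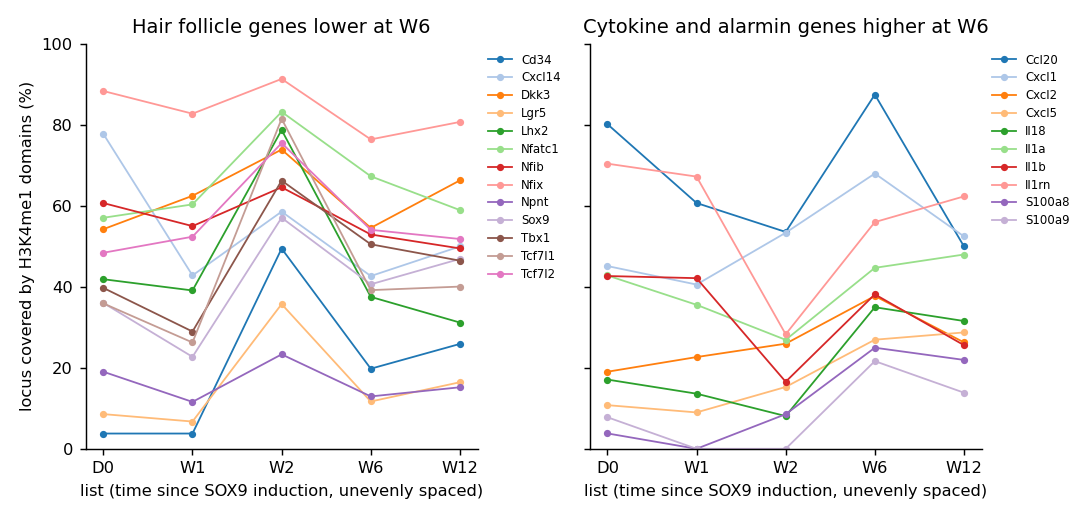
H3K4me1 coverage (%) of the 13 hair follicle loci that were lower at W6 than at W2 (left) and of the 10 cytokine and alarmin loci that were higher (right), by list, with 1 pooled value per point and time unevenly spaced. W2 is the highest point at 12 of the 13, and the lowest at 4 of the 10. The genes were chosen by their W2 and W6 values.

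The counts of this paragraph stand beside 7.01% of all loci higher and 8.17% lower. Among genes of epidermal identity, 5 of 19 transcription factors were higher at W6. Ovol1, a regulator of epidermal differentiation, went from 68.3 to 96.8%, Zfp750 from 65.4 to 81.8%, Cebpb from 75.3 to 89.4%, Sox7 from 49.0 to 61.6% and Grhl3 from 48.9 to 59.4%. Of 15 keratins and differentiation genes 3 were higher (Krt10, Krt2 and Dsc1) and none lower, with a median of +4.63 points. Krt10, the keratin of suprabasal cells, was covered over 64.6, 39.7, 34.5, 53.5 and 42.8% from D0 to W12. Of 9 stress and simple epithelial keratins, Krt8 was higher and Krt7, Krt18 and Krt19 lower. Of 13 AP1 genes Fos (80.3 to 95.7%) and Fosb were higher and Jun (62.9 to 52.7%) lower. The last 2 calls turned with the window, Jun to +0.97 points with 50 kb on both sides and +18.8 in the gene body alone, and Fosb to −13.6 in the gene body alone. Of 5 RUNX genes and partners Runx3 alone was called, with 15.8 and 29.7%, beside Runx1 at 52.2 and 51.4% and Runx2 at 21.5 and 29.3%. Runx1 had 13 H3K27ac peaks at W2 and 22 at W6, and Runx2 held 14 W6-only domains. In lists as short as those of AP1 and RUNX genes, these counts of calls lie near the shares of all loci.

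The counts of the signalling lists stand beside 7.01% of all loci higher and 8.17% lower, or 8.69 and 10.1% of loci with a domain. The lists were not tested against each other. In the Hedgehog pathway 4 of 12 were lower, the transcription factors Gli2 (68.3 to 40.6%) and Gli3 (39.8 to 16.6%) and the co-receptors Boc and Cdon, with a median of −6.32 points. Gli2 had been covered over 29.5% at D0, and had 5 H3K27ac peaks at D0, 13 at W2, 6 at W6 and 4 at W12. In the Wnt pathway 6 of 26 were lower and none higher. They were the receptors Fzd2 (71.0 to 27.05%, with 27.05% at D0) and Lrp6, the antagonists Sfrp1 (86.7 to 45.1%), Dkk1 and Nkd1, and the factor Tcf7. In the gene body alone Fzd2 was covered more at W6, by 36.6 points. Of 15 genes of the YAP, TAZ and TEAD pathway 5 were lower and none higher, among them Wwtr1, which encodes TAZ (57.2 to 31.5%), and Yap1 (57.9 to 42.3%). They had been covered over 67.7 and 62.9% at D0, so that both were below D0 at W6.

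Of 26 genes of BMP and TGF-β signalling 8 were lower, among them Smad1 (72.2 to 48.1%), Smad6, Tgfbr1 and Bmp4, and 5 higher, among them Tgfbr2 (21.4 to 40.1%), Smad3 and Bmp7. In the NF-κB pathway 4 of 12 were higher and 1, Traf1, lower, with Bcl3, a nuclear IκB protein, at 43.5 and 72.2%, and Rel, Nfkbia and Nfkb1 beside it. Of 13 EGF receptor and ligand genes the ligands Ereg (22.2 to 51.4%) and Areg (23.6 to 35.4%) were higher and Lrig3 lower. Ereg had been covered over 45.7% at D0 and had 2, 0, 0, 3 and 2 H3K27ac peaks from D0 to W12, the summit printed above being 1 of the 3 at W6. Of 15 Notch genes 1 was higher and 2 lower, of 13 EMT regulators and cadherins Epcam was higher (17.6 to 39.3%) and Snai2 lower (59.5 to 29.7%), and of 25 matrix and invasion genes 7 were lower, among them Col4a1, Col4a2, Mmp14 and Tnc, and none higher. Of 18 angiogenesis genes 2 were higher and 3 lower. Lists of the size of the Notch, EMT and angiogenesis lists would hold 1 or 2 genes each way at the shares of all loci, so that these 3 counts lie near the background. Of 24 cell cycle genes and oncogenes 5 were higher, among them Myc (48.8 to 64.8%), Ccnd2 and the neighbouring CDK inhibitor genes Cdkn2a and Cdkn2b (8.9 to 27.9%), and 2 lower, Bcl2 and Cdk4.

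**Figure D5:**
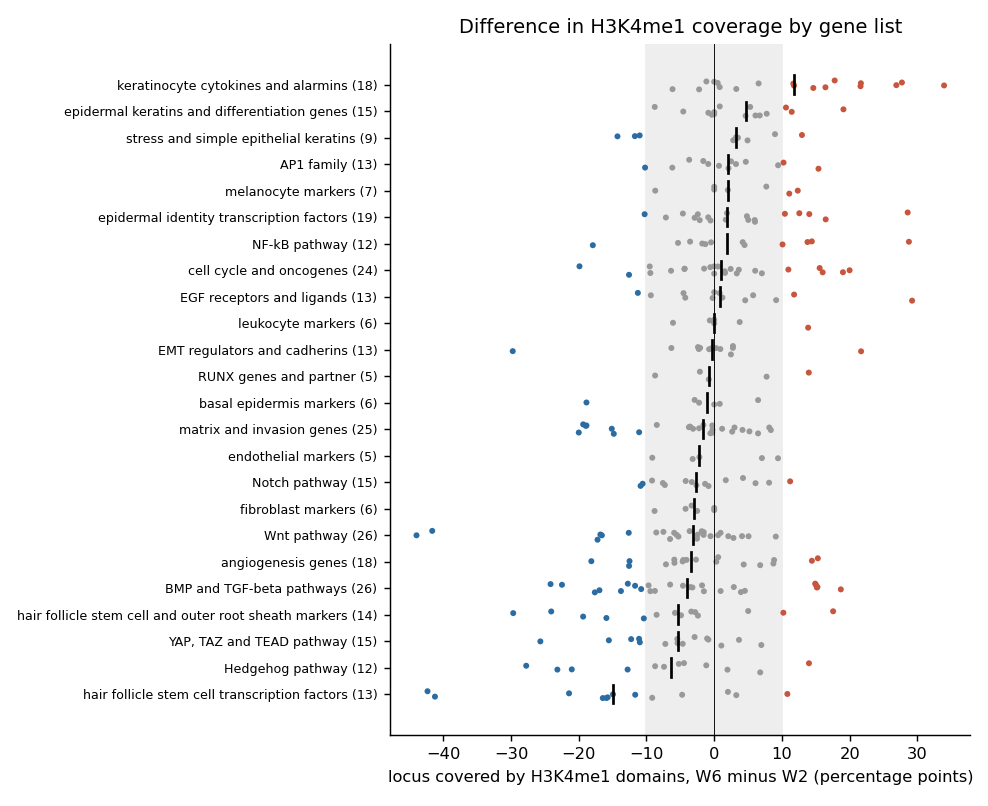
Difference in H3K4me1 coverage of each gene locus, W6 minus W2 (x axis, percentage points), by gene list, with the number of genes in brackets. Points are genes, grey inside the band of less than 10 points and coloured outside it, and bars are list medians, which run from −14.9 for hair follicle stem cell transcription factors to +11.7 for cytokines and alarmins.

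These calls depended on the window. Of the 107 listed genes called, 46 kept their call with 50 kb on both sides and 79 with the gene body alone, and the difference kept its sign in 104 and 92. Besides Tbx1, Jun, Fosb and Fzd2, it had the opposite sign at Nfkbia (−1.94 points) and Id3 (+5.28 points) with 50 kb, and at Cxcl2 (−19.3 points) and Ccne1 (−5.59 points) in the gene body alone.

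Markers of the sorted cells and of cells that the gate removes were checked in the same way. Krt5 was covered over 96.9% at W2 and at W6, Krt14 over 84.3 and 85.1% and Trp63 over 58.5 and 55.6%, and of 6 basal markers Col17a1 alone was called, lower (82.3 to 63.4%). Of 7 melanocyte markers Pmel and Mlana were higher. Of 6 leukocyte markers Spi1, a myeloid factor, was higher (16.9 to 30.8%), with no H3K27ac peak at any time. Ptprc, which encodes CD45, was not called (1.66 to 5.42%), but held 2 W6-only domains, both late gains, and had 1 H3K27ac peak at W6, 1 at W12 and none earlier. None of the 6 fibroblast and 5 endothelial markers was called. The windows of each list together were covered over 19.4% at W2 and 17.7% at W6 for melanocyte, 6.25 and 9.76% for leukocyte, 14.0 and 10.9% for fibroblast and 16.6 and 16.7% for endothelial markers. The part of other cells in the gene results was not tested.

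By bases rather than share, the largest falls were in long genes. Bnc2 (ENSMUSG00000028487, chromosome 4, 84275095 to 84675275, minus strand), a zinc finger factor of keratinocytes and fibroblasts, had 276506 bp of its window covered at W2 and 78906 bp at W6, which is 65.8 and 18.8% of it. It stood at 24.8% at D0 and 18.2% at W12, and had 7, 10, 22, 6 and 6 H3K27ac peaks. Trabd2b, a protease that inactivates Wnt proteins, stood at 33.8, 36.7, 87.5, 29.7 and 28.4%, with 8 H3K27ac peaks at W2 and 1 at W6. Enox1 and Atp8a2 each had 9 H3K27ac peaks at W2 and none at W6, and were covered over 30.9 and 25.3% at W2 and 6.91 and 3.63% at W6. Klhl29, Dennd1a, Lpp, Foxp1 (with Gm20696, which overlaps it) and Tenm2 complete the 10. H3K27ac peaks did not fall at all of them, with 8, 10, 14, 19 and 25 at Foxp1 and 5, 8, 7, 7 and 14 at Gm20696. Each of the 10 held from 8 to 24 W2-only domains. The W2 and W6 values chose these genes, so that W2-only domains and a W2 value above W6 follow from the choice. The D0, W1 and W12 values did not enter the choice, and all were below W2. The choice favours a high W2 value, so that this order is also expected in part.

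The largest rises, chosen by the same 2 values, were smaller. Fstl4 gained 57 kb, from 8.06 to 20.9%, with 13 W6-only domains of which 7 were late gains, and its H3K27ac peaks numbered 2 at W2 and 9 at W6. It stood at 2.48% at D0. Hrh1 (ENSMUSG00000053004, chromosome 6, 114397936 to 114483296, plus strand) was covered over 24.1, 10.3, 10.4, 42.3 and 47.8% and had 1, 0, 0, 8 and 3 H3K27ac peaks. Col23a1, a transmembrane collagen, stood at 13.4 and 31.1%, below its 43.4% at D0. Among the others were Ccdc192, Fggy, Plpp4, Loxhd1, Myo5b and Gm20388, the last an annotated locus that spans many other genes.

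Start sites entered and left domains in similar numbers. Of 21911 protein-coding genes 10751 had a start site in a domain of both lists, 1509 (6.89%) at W2 alone and 1437 (6.56%) at W6 alone. Among listed genes, 27 had a start site in a domain at W6 alone, of which 7 were higher and 6 lower in coverage, and 32 at W2 alone, of which 6 were higher and 4 lower. Start sites and coverage thus changed in opposite directions at about as many listed genes, Nfatc1, Sfrp1, Smad1, Sox21, Krt2 and Bmp7 among them, as in the same direction, where Il1a, Myc, Fos, Yap1, Snai2 and Dkk1 belong. H3K4me1 is often low at the start site of a strongly expressed gene itself, so that a missing domain there is no measure of activity. Between neighbouring times the share of domains without a counterpart was 27.8% of D0 and 5.96% of W1 domains, 17.5% of W1 and 24% of W2 domains, 19.4% of W2 and 23.4% of W6 domains, and 19.01% of W6 and 11.8% of W12 domains.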

How the data were processed

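MINT-ChIP libraries of sorted EpdSCs were processed by the authors, who removed adapters (Skewer), mapped the reads to GRCm38/mm10 (Bowtie2), dropped duplicates (Picard) and merged replicates (Samtools). The labels name Bowtie2 2.2.9, SAMtools 1.9, MACS2 2.1.1 and SICER 0.0.36, the methods name epic2 for H3K4me1, and read length is 40 bp in the labels and 50 bp in the methods. The caller settings and controls are not given in the sources used here. The deposited H3K4me1 lists give a p-value per domain in bins of 200 bp, and the deposited H3K27ac lists of MACS2 give a score, a fold enrichment and −log10 of the q-value. These values rank intervals within a list, and p-values were set side by side between lists only for matched domains of the same width. H3K4me1 depth is unknown.

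Chromosomes 1 to 19, X and Y were used, which left out the 2 mitochondrial domains of each of W2 and W6. Overlap was at least 1 bp. Widths were compared for domains with 1 partner each way, and place and genes were taken from GENCODE M21 basic. Words were counted on both strands of GRCm38 (RefSeq). Groups were read from the labels. Computations used Python 3.11.15, pandas 2.3.3, numpy 2.4.6 and SciPy 1.17.1. Counts of overlaps, distances and words were tested on simulated data. They equalled the planted number or an independent count in 19 of 19 checks. Exact Clopper-Pearson intervals at 95% cover counting error only, and no test between lists was made, since each list pools its replicates. Members and gene lists (24 lists, 328 genes) were chosen with earlier results of these data known. Genes named in the text were those of the lists, the 10 best-ranked W2-only and W6-only domains, the 5 best-ranked late gains and W2-only domains missing from W12, and the 10 largest changes each way in width and in covered bases. Printed sequences were chosen after the data were seen. Alternatives were a 50% overlap, the better 50% of the lists, lists of equal length, joined or linked domains, no sex chromosomes, other distal limits, other gene windows and other word windows. A few genes that the rule names are not reported here. Total H3, culture lists (4) and barcode files (14) were not used.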

Additional observations from a re-analysis of the deposited data

How the results depend on the processing

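Of 51 alternative values, 28 moved beyond counting error or by over 1.5 times. A turn was scored only as a change of sign, which counts, shares and ratios cannot show. The differences in distal share, in history and in H3K27ac could change sign, and none did. With the better 50% of both lists by p, 6624 W2-only and 9532 W6-only domains were left, and with the better 50% of a list against the whole other list, an alternative chosen after seeing the data, 1425 and 1998, or 3.88 and 5.02%. A 50% overlap, joined domains and autosomes alone kept both counts within 1.5 times, as did lists of equal length (16243 W2-only and 15166 W6-only), although these turned the order of the 2 counts. The share of matched domains that were narrower at W6 was 53.3% over linked groups of domains and 49.6% in the better 50%, where 42.4% were wider. The distal share of W2-only domains exceeded that of W6-only domains by 5.83 points, and by 4.23 with a limit of 1000 bp, 13.1 with 10000 bp and 2.26 in the better 50%. In the better 50% of every list, W6-only domains exceeded W2-only domains by 10.2 points at D0, 3.28 at W1 and 26.1 at W12. The H3K27ac difference was 1.85 points with the better 50% of the peaks, in place of 2.55. With 50 kb on both sides 648 loci were higher and 748 lower, and with the gene body alone 2037 and 2829. The AP1 word was 1.44 times as frequent per kb in W6-only as in W2-only domains and 1.55 times by central windows, with 1.002 and 1.03 for the reversed letters. The causes of these changes were not tested. No paired analysis was possible because every list pools the replicates of its time point, and leaving out a replicate was not possible for the same reason.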
